A study of Mus musculus with 4 samples.

Results

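The 10 genes described here act in non-homologous end joining and in the sensing of DNA double-strand breaks: Xrcc4, Xrcc5, Xrcc6, Prkdc, Lig4, Dclre1c, Nhej1, Atm, Trp53bp1 and H2afx. They were chosen by name, but with earlier results of these data known. They are 10 of the 27827 gene names of an Agilent mouse expression array, measured by 20 of its 41174 probes. The study set B cells of mice labelled Mef2c KO against those of C57BL/6 mice (WT), and Mef2c encodes a transcription factor of the MADS-box family that is expressed in B cells. Total RNA came from B220 B cells (B220 is the CD45 isoform carried by B lineage cells) of naive mice, isolated fresh from bone marrow or spleen, and was hybridised in 1 colour (Cy3). There are 4 arrays, 1 for each group: marrow KO, marrow WT, spleen KO and spleen WT. No treatment was given to any group. The labels do not state how many animals gave each RNA, their age or sex, how the cells were isolated, which part of Mef2c was deleted, in which cells, or the background strain of the KO mice.

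End joining rejoins the broken ends of DNA without a homologous template. Ku, the dimer of the Xrcc5 and Xrcc6 proteins, binds each end and recruits the DNA-dependent protein kinase encoded by Prkdc, the nuclease Artemis encoded by Dclre1c opens hairpins and trims ends, and DNA ligase IV (Lig4) with Xrcc4 and the XLF protein (Nhej1) seals the break. Atm is the kinase that signals a break, H2afx encodes the histone H2AX that it phosphorylates around the break, and Trp53bp1 encodes 53BP1, which gathers on that chromatin and holds back resection of the ends. Developing B cells depend on this machinery, because pro-B and pre-B cells in the marrow cut their immunoglobulin genes with the RAG nuclease during V(D)J recombination, and mature B cells cut them again during class switching.

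Sequences are shown for the members on which the results turn. The first set holds 4 of the study's 60-base probes, from the deposited array files and written 5′ to 3′ in lower case: those of Xrcc6 and Lig4, which were lower in spleen, that of Prkdc, and the probe of Atm whose spleen values went apart from those of the other Atm probe. Each can be read in at least 1 frame without a stop codon. The positions are those of the array files, build mm9; the spans of the Xrcc6 and Prkdc probes are longer than 60 bases, so these probes cross introns, and no exon or UTR annotation of that build was used here. They lie at chr15:81861655-81866128 (+ strand, Xrcc6), chr8:9971496-9971555 (− strand, Lig4), chr16:15839317-15841922 (+ strand, Prkdc) and chr9:53256167-53256226 (− strand, Atm).
Xrcc6 probe: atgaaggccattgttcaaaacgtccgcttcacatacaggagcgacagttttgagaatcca
Lig4 probe: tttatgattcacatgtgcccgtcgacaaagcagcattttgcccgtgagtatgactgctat
Prkdc probe: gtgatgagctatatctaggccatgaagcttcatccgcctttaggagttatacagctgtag
Atm probe: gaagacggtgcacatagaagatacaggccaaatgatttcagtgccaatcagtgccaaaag

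The second set holds the 250 bases before the transcription start of Xrcc6 and Lig4, which fell together between the tissues, and of Xrcc5, the partner of Xrcc6 that did not follow it. They come from RefSeq (GRCm38.p6), which matched 8 of the 10 genes with 9 starts; H2afx and Prkdc have none there. Capitals mark the GC box GGGCGG, the CCAAT box and the E2F motif TTTCCCGC or TTTGGCGC, each sought on both strands with no base shared between motifs, so a motif on the other strand appears as its reverse complement. The positions are chr15:82016119-82016368 (+ strand, Xrcc6), chr8:9976312-9976561 (− strand, the more 3′ of both starts of Lig4) and chr1:72307171-72307420 (+ strand, Xrcc5).
Xrcc6 promoter: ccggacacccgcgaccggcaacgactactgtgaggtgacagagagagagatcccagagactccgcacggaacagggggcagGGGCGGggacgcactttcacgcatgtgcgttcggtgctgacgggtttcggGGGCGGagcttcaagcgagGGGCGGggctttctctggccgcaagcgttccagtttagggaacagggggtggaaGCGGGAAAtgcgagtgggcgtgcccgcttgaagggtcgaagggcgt
Lig4 promoter: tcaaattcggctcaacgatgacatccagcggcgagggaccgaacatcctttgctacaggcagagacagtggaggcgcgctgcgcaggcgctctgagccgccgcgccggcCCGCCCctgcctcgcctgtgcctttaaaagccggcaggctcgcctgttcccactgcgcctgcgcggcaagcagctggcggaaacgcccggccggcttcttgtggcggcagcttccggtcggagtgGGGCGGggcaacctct
Xrcc5 promoter: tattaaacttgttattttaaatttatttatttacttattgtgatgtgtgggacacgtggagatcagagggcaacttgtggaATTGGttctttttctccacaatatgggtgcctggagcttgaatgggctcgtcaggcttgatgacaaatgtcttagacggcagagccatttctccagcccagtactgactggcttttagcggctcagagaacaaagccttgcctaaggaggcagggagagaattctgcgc

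The Xrcc6 window held 3 GC boxes and 1 E2F motif, and it was the one of the 9 member promoters with an E2F motif, which 1.3% of 32851 RefSeq promoters of that length hold. The printed Lig4 window held 2 GC boxes. The window of Xrcc5 held none, but 1 CCAAT box and 1 E-box CACGTG (left in lower case), the latter a motif of 6.02% of all promoters. GC boxes stood in 7 of the 9 member promoters against 32.7% of all, and CCAAT boxes in 3 of 9 against 33.8%. The consensus motif of MEF2, the family of the factor named in the KO label, was found in 0 of 9 and in 1.69% of all. The windows of Xrcc6 and Lig4 were 65.2% and 68.4% G or C and that of Xrcc5 44.8%, with a median of 52.4% over all promoters. The other start of Lig4 had 70.0% and 0 GC boxes. Of genes that did not pass the tissue test below, Xrcc4 had 68.0% and 3 GC boxes, and Atm 66.0% and 1. Nhej1 had 48.4% and 2, Dclre1c 54.8% and 1, and Trp53bp1 54.4% and 1. The printed windows thus do not stand for all 9. These matches describe letters in a window and no binding was measured.

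Some facts of the arrays bear on every value. The unit is the processed signal, the scanner software's background-subtracted brightness, and differences are given in log2 after dividing each array by its 75th percentile. That percentile was 961 to 1008 on 3 arrays and 520 on the spleen KO array, where 59.3% of gene probes were well above background against 69.1% to 72.0% on the others, so the spleen KO array stands apart. Both marrow arrays share slide 1 and both spleen arrays slide 2, so tissue and slide cannot be told apart, and on each slide KO held position 1 and WT position 2, so genotype and position cannot be told apart either. Mef2c itself was not lower on the KO arrays at its brighter probe (signals of 5511 and 4218 in marrow KO and WT, and 11838 and 8534 in spleen KO and WT); its other probe, dimmer but well above background on all arrays, gave 28.5, 21.2, 128 and 364, so it was lower on the spleen KO array (-0.61) and not in marrow (0.36). Whether either probe lies in the deleted part is not known, so they do not check the labels. KO and WT therefore stand for the labels of the arrays throughout. The 8 B lineage markers (among them Cd79a and Pax5) were well above background on all 4 arrays. All 10 genes were well above background on all 4 arrays with their brightest probe, as were 17 of their 20 probes, and the brightest probe gives the values of a gene unless another is named.

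Each group is 1 array, so a difference between a pair of arrays cannot be set against the spread between replicates, and precision is limited by having 4 arrays in all. Spots of the same probe on 1 array varied with a median SD of 0.10 to 0.14 in log2, which is scanning and hybridisation error alone. The one test that the design allows is a fit over all 4 arrays with tissue and genotype as additive terms (limma, 21706 genes, Benjamini-Hochberg adjustment, threshold 0.05). Its spread comes from 1 residual degree of freedom per gene and 9.65 shared over all genes, 10.6 in all. It reflects how far tissue differences varied between genotypes, or genotype differences between tissues, mostly over all genes and little in the gene itself. The standard error was 0.54 for Trp53bp1 and 0.57 for Xrcc5, though their KO minus WT differences were 0.11 and 1.31 apart between tissues. The p-values thus mostly set the size of a difference against that shared spread, and measure no spread between replicates.

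Between the tissues, 3 of the 10 genes fell from marrow to spleen and none rose in the limma fit. The histone gene H2afx fell most, by 3.75 in log2 or 13.5-fold, the Ku subunit gene Xrcc6 fell 9.76-fold and the ligase gene Lig4 5.82-fold. The other 7 genes, among them the Ku partner Xrcc5, the kinases Prkdc and Atm and the ligase cofactor Xrcc4, did not pass the test. Over all 21706 genes, 8.43% passed for tissue in either direction, 2.92% as higher and 5.51% as lower in spleen. These are bulk RNA pools, in which fewer cells of a type and less RNA per cell cannot be told apart.

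**Figure D1:**
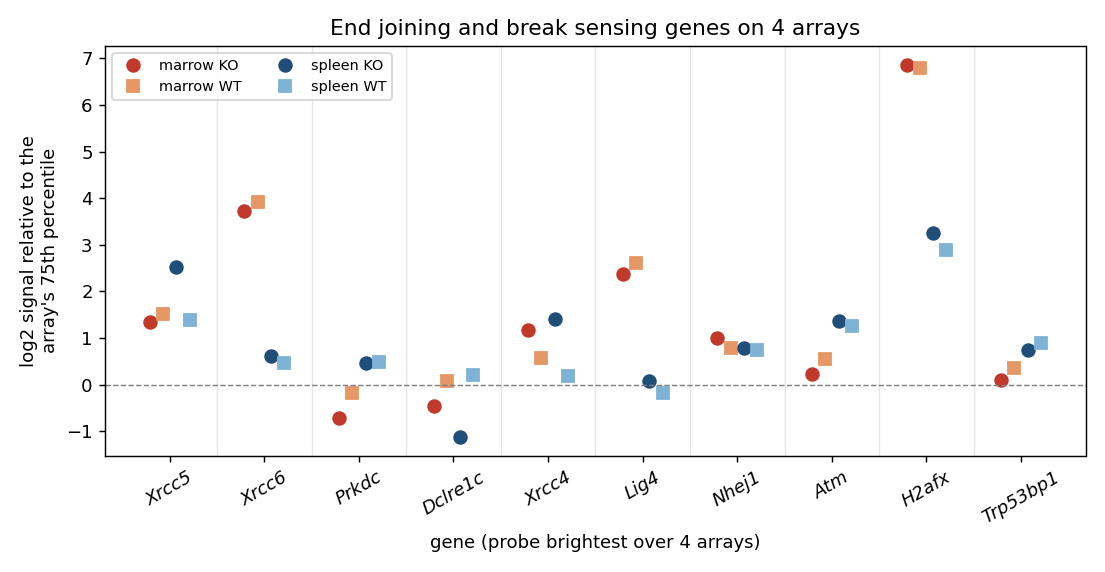
Level of the 10 end joining and break sensing genes on each of the 4 arrays. The vertical axis is the log2 processed signal relative to the array's 75th percentile (dashed line at 0), with 1 point per array at the gene's brightest probe; levels of different genes rest on different probes and are not to be compared. H2afx, Xrcc6 and Lig4 have both marrow points well above both spleen points, while Xrcc5 has its spleen KO point above the other 3 and Dclre1c its spleen KO point below them.

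H2afx, the source of H2AX, had signals of 117597 in marrow KO, 105733 in marrow WT, 4943 in spleen KO and 7209 in spleen WT at its 1 probe (chr9:44144033-44144092, + strand, mm9). Both marrow arrays were far above both spleen arrays, and the spleen minus marrow difference was -3.89 in WT and -3.62 in KO. The limma estimate was -3.75 with a standard error of 0.54, a 95% interval from -4.94 to -2.57 and an adjusted p of 0.00185, and over 10 alternative settings the adjusted p ranged from 1.8e-15 to 0.0227.

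Xrcc6, the Ku70 subunit, gave 13319 in marrow KO, 14584 in marrow WT, 794 in spleen KO and 1337 in spleen WT at the probe printed above. Marrow and spleen did not overlap, and the difference was -3.46 in WT and -3.11 in KO. The limma estimate was -3.29 with a standard error of 0.54, a 95% interval from -4.48 to -2.10 and an adjusted p of 0.00373, with a range from 1.8e-11 to 0.0258 over the alternatives.

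Lig4, the ligase that seals the break, gave 5236 in marrow KO, 5883 in marrow WT, 551 in spleen KO and 859 in spleen WT at its brighter probe, near the 3′ end of the transcript at base 3751 (chr8:9970290-9970349, − strand, mm9). The printed probe, which starts at base 2545, gave 3177, 4136, 229 and 449 on the same arrays. Both probes were higher in both marrow samples than in both spleen samples. The tissue difference at the brighter probe was -2.79 in WT and -2.29 in KO, and at the printed probe -3.22 and -2.84. The limma estimate at the brighter probe was -2.54 with a standard error of 0.54, a 95% interval from -3.74 to -1.35 and an adjusted p of 0.0147, with a range from 1.18e-06 to 0.0444 over the alternatives.

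Xrcc5, the Ku80 subunit, did not share the pattern of Xrcc6. Its signals were 2545 in marrow KO, 2732 in marrow WT, 2977 in spleen KO and 2520 in spleen WT (chr1:72430014-72430320, + strand, mm9). Relative to each array's 75th percentile the spleen KO array was the highest and the other 3 lay close together, with a tissue difference of -0.13 in WT and 1.18 in KO. In the limma fit the tissue estimate was 0.53 with a 95% interval from -0.74 to 1.79 (adjusted p = 0.723; 0.635 to 0.858 over the alternatives), an interval that does not reach the estimate for Xrcc6.

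Xrcc4, the partner that holds and stabilises the ligase, likewise did not share the pattern of Lig4. It gave 2257 in marrow KO, 1421 in marrow WT, 1383 in spleen KO and 1105 in spleen WT (chr13:89988804-89988863, − strand, mm9), with a tissue difference of -0.38 in WT and 0.25 in KO. Its limma tissue estimate was -0.06, with an interval from -1.27 to 1.14 (adjusted p = 0.978). Nhej1, another ligation factor, gave 2015 in marrow KO, 1647 in marrow WT, 890 in spleen KO and 1629 in spleen WT. It was the steadiest of the 10 genes, with relative levels that spanned 0.25 in log2 over the 4 arrays, and its limma tissue estimate was -0.13 (interval from -1.31 to 1.06, adjusted p = 0.950).

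The kinase genes pointed the other way without passing the test. Prkdc gave 618 in marrow KO, 851 in marrow WT, 721 in spleen KO and 1352 in spleen WT, as the mean over 10 spots on each array (8 on spleen WT), whose SD was 0.043 to 0.064 in log2. Both relative spleen levels were above both marrow levels, by 0.65 in WT and 1.18 in KO. Atm gave 1191 in marrow KO, 1409 in marrow WT, 1330 in spleen KO and 2330 in spleen WT at its brighter probe (chr9:53245871-53245930, − strand, mm9), with differences of 0.71 in WT and 1.12 in KO. The printed Atm probe gave 1.39 and 0.02, and the median over both probes 0.57 in KO. The limma tissue estimates were 0.92 for Prkdc (interval from -0.28 to 2.11, adjusted p = 0.411) and 0.91 for Atm (interval from -0.28 to 2.11, adjusted p = 0.409).

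Trp53bp1 had signals of 1084 in marrow KO, 1240 in marrow WT, 872 in spleen KO and 1810 in spleen WT, and its tissue difference was 0.53 in WT and 0.64 in KO (limma estimate 0.59, interval from -0.60 to 1.77, adjusted p = 0.651). Dclre1c, the Artemis gene, gave 735 in marrow KO, 1021 in marrow WT, 239 in spleen KO and 1127 in spleen WT (chr2:3370687-3370746, + strand, mm9). At this probe, at base 1810, the spleen KO level was the lowest of the 4. The tissue difference there was 0.13 in WT and -0.66 in KO (limma estimate -0.27, interval from -1.48 to 0.95, adjusted p = 0.883). The other Dclre1c probes were divided. The difference was 0.63 in WT and 0.48 in KO at base 2214, and 1.04 and 0.11 at base 3830, with marrow KO lowest at both. The probe at base 990 gave -0.66 in WT. In KO it gave a bound of -1.20, because its spleen KO signal was not well above background.

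By fold alone, 3 of the 10 genes were at least 2-fold lower in spleen WT than in marrow WT and 0 were at least 2-fold higher, where 31.1% of 21099 measured genes were 2-fold apart (15.2% higher and 15.8% lower). Between the KO arrays the same 3 were lower, and Xrcc5, Prkdc and Atm were higher by 1.12 to 1.18, beside 29.7% of 20005 genes (15.8% higher, 13.9% lower). With quantile normalization or cyclic loess Prkdc alone of these 3 stayed past 2-fold (1.17 and 1.06). The median of the 10 was -0.08 in WT, the same as the median of all genes (-0.08), and 0.01 in KO against 0.19. In WT the share of members past 2-fold was thus near that of all genes, and in KO it was 6 of 10. Scaling by the median in place of the 75th percentile took the part of higher genes, among all that were 2-fold apart, from 49.0% to 38.5% in WT and from 53.2% to 65.1% in KO. The WT comparison does not use the spleen KO array; without that array the limma fit has no residual degree of freedom and gives no test.

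**Figure D2:**
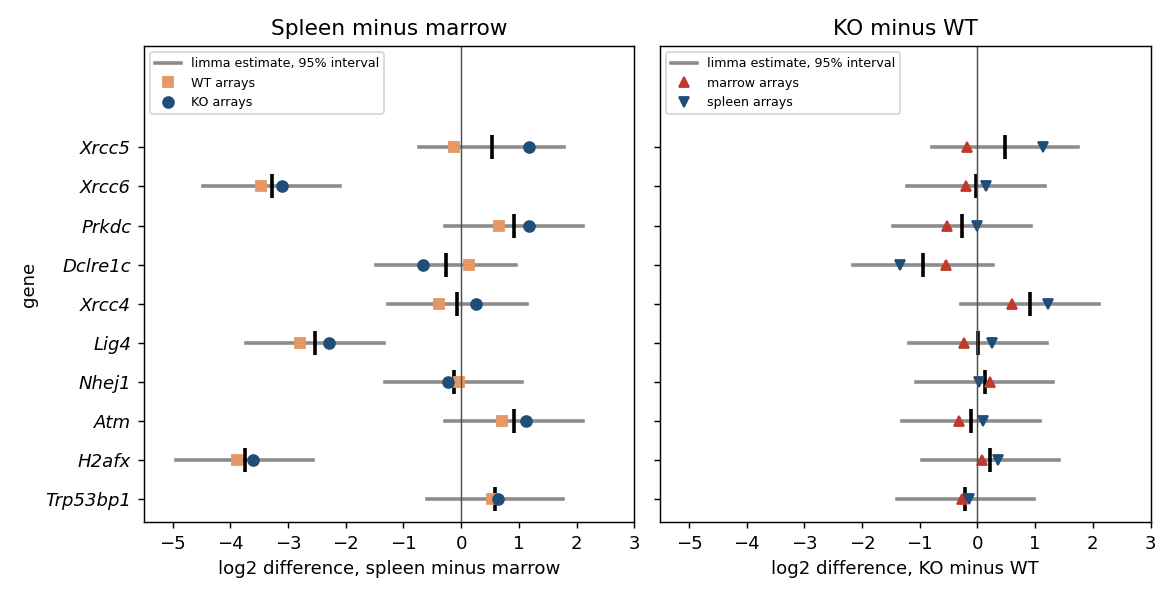
Differences of the 10 genes between tissues (left, spleen minus marrow) and between genotypes (right, KO minus WT), in log2. Coloured symbols are differences between single arrays, and the black tick and grey line are the limma estimate and its 95% interval. The intervals of H2afx, Xrcc6 and Lig4 lie below 0 for tissue, and all 10 intervals include 0 for genotype.

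Markers of dividing cells and of early B cells moved with the 3 genes between the tissues. Of 21 measured cell division genes, 21 were at least 2-fold lower in spleen in WT and 19 in KO (median -3.19 and -3.27), and 17 fell in the limma fit. Their summed signal was 653 and 613 times the 75th percentile in marrow KO and WT, and 159 and 90.6 times in spleen KO and WT. Of 12 pro-B and pre-B cell markers, 11 fell in the limma fit, and the other, Bcl6, was higher in spleen by 1.22 in WT and 1.80 in KO. The median over the 10 measured on both arrays was -5.74 in WT and -5.91 in KO. The sums over all 12 were 799, 511, 80.0 and 75.8 times in the same order. Of the defining ones Rag2 and Igll1 were not well above background on either spleen array. Of 8 mature B cell markers 5 rose, with sums of 19.1, 30.5, 145 and 222 times. Of 10 neutrophil markers 9 fell, with sums of 1510, 442, 146 and 11.4 times. Of 10 macrophage markers 6 rose, and of 9 T cell markers 2. No NK cell, erythroid or plasmacytoid dendritic cell marker passed. By fold, 6 of 8 NK cell markers were 2-fold higher in spleen in WT and 3 in KO, and 2 and 3 of 7 plasmacytoid dendritic cell markers. Of 8 erythroid markers 2 were 2-fold lower in WT and 5 higher in KO. The part of any of these cells in the fall of H2afx, Xrcc6 and Lig4 was not tested.

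Among the 119 other repair genes of the lists on the array, 22 of the 118 tested fell from marrow to spleen and 0 rose, and 39 had an unadjusted limma p under 0.05. Of the homologous recombination genes 10 of 24 fell, among them Rad54l (-3.38), the nuclease gene Exo1 (-2.77) and Brca1 (-2.48). Of the accessory end joining genes 1 of 10 fell: Dntt, whose product TdT adds bases at V(D)J junctions, with signals of 149978 in marrow KO, 49160 in marrow WT, 300 in spleen KO and 280 in spleen WT and an estimate of -7.74. Of the alternative end joining genes 2 of 9 fell, the polymerase gene Polq (-2.06) and the ligase gene Lig1 (-2.29). In break signalling 1 of 24 fell, the checkpoint kinase gene Chek1 (-3.26), in the Fanconi list 3 of 13 (Fancd2, Fanci and Brip1), in excision and mismatch repair 2 of 33 (Neil1 and Neil3), and in V(D)J recombination and class switch 3 of 5 (Rag1, Rag2 and Hmgb2).

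Among these genes, Rag1, the catalytic subunit of the RAG nuclease, had the largest tissue difference. It gave 36429 in marrow KO, 36460 in marrow WT, 37.1 in spleen KO and 58.9 in spleen WT. The glycosylase gene Neil3 gave 5764, 5441, 132 and 194 on the same arrays, a difference of -4.83 in WT and -4.50 in KO. In both genotypes H2afx, Xrcc6 and Lig4 lay within the range of the homologous recombination genes, which reached from -3.53 to 1.73 in WT and from -3.35 to 1.96 in KO, except H2afx, which was lower than all of them in both.

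**Figure D3:**
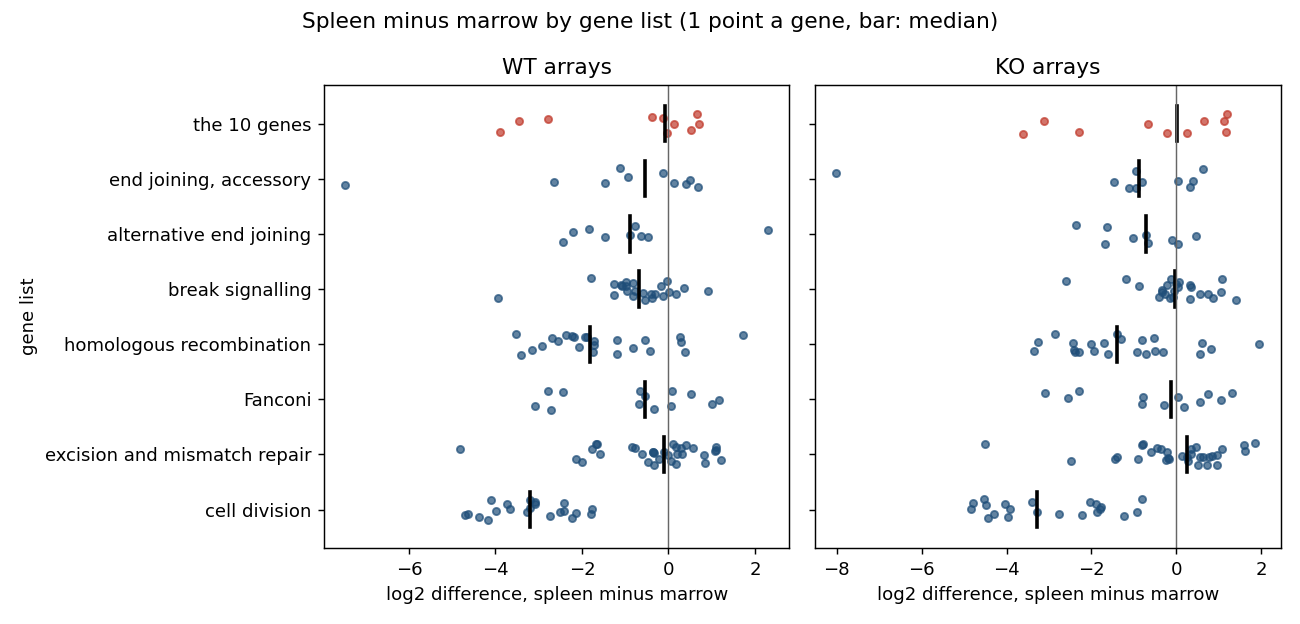
Spleen minus marrow difference, in log2, of each gene of the 10 (red) and of 7 lists (blue), in WT arrays (left) and KO arrays (right). Each point is a gene measured on both arrays and each black bar is the median of its list: the 10 genes centre near 0 (-0.08 in WT) with 3 points far to the left, homologous recombination centres at -1.82 in WT and cell division at -3.19.

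Between the genotypes, no end joining or break sensing gene differed in the limma fit, either in adjusted p or at an unadjusted p under 0.05 (0 of 10 for both). Over all genes 14 of 21706 passed (0.0645%, with 0.0507% higher in KO and 0.0138% lower) and 2472 had an unadjusted p under 0.05. The largest estimates were those of Dclre1c, lower on the KO arrays by -0.94 (interval from -2.15 to 0.27, adjusted p = 0.559, 0.379 to 0.794 over the alternatives), and of Xrcc4, higher by 0.91 (interval from -0.29 to 2.11, adjusted p = 0.570, 0.387 to 0.839 over the alternatives). Intervals this wide do not show that the genes were alike in KO and WT. In simulated data of the same size, the limma fit recovered 0% of genes with a genotype difference of 1 in log2 and 20% of those with 2. It recovered 96% of those with 4, with 50 changed genes of each size (1, 2, 4 and 6). For tissue it recovered 0%, 16% and 100% at sizes 1, 2 and 4. The simulated noise was independent and of 1 spread per gene on all 4 arrays, without the departure of the spleen KO array. The genes changed by 4 or 6 also ease the adjusted threshold, so recovery in the real fit may differ. In these simulations 11 unchanged genes also passed for genotype and 16 for tissue.

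In marrow, 0 of the 10 genes differed by 2-fold between KO and WT, where 13.3% of 20901 measured genes did (8.4% higher and 4.87% lower). The extremes were Xrcc4, higher in KO by 0.60 (1.51-fold), and Dclre1c, lower by -0.54 (1.46-fold), followed by Prkdc at -0.53. The break sensing genes were closer, with Atm at -0.31, Trp53bp1 at -0.26 and H2afx at 0.08. Xrcc6 differed by -0.20, Xrcc5 by -0.17, Lig4 by -0.24 and Nhej1 by 0.22. In all, 7 of the 10 were lower on the KO array and 3 higher, with a median of -0.22 against -0.05 over all genes. Each of the 10 signs held under the 9 alternatives run. Among these, the background filters, the deposited values and leaving out the spleen KO array left every marrow value unchanged, so they check no sign. Over all genes 2-fold apart in marrow, 63.3% were higher in KO, and 75.02% with cyclic loess and 75.2% with normexp.

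In spleen, 3 of the 10 genes were 2-fold apart, beside 34.2% of 19479 measured genes (20% higher and 14.2% lower). Xrcc4 was higher on the KO array by 1.22 (2.33-fold), Xrcc5 higher by 1.14 (2.20-fold) and Dclre1c lower by -1.34 (2.53-fold). The other 7 lay between -0.15 (Trp53bp1) and 0.36 (H2afx), with Prkdc at -0.01, Nhej1 at 0.03, Atm at 0.09, Xrcc6 at 0.15 and Lig4 at 0.26. The median was 0.12 against 0.28 over all genes. Scaling each array by its median in place of its 75th percentile moved the median of all genes to 0.70 in this comparison and raised the part of 2-fold different genes that were higher from 58.5% to 80.2% (70.3% with normexp); Dclre1c was then at -0.92, Xrcc4 at 1.64 and Xrcc5 at 1.56, so the directions of these 3 held, as they did under all 8 alternatives run. The sign of each of the other 7 turned under at least 1 of them, so these 7 have no settled direction in spleen. Among the alternatives, the background filters and the deposited values left every spleen difference of the 10 genes unchanged, so they check no sign.

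Xrcc4 (0.60 in marrow and 1.22 in spleen) and Dclre1c (-0.54 and -1.34) were the members whose KO minus WT difference had 1 sign in both tissues under every alternative run. Xrcc5 differed in sign between the tissues, at -0.17 and 1.14. Whether genotype acts differently in the 2 tissues cannot be tested with 4 arrays.

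The 6 genes with several probes show how far these values rest on the probe. For Atm the brighter probe, which starts at base 11260 of the transcript, differed by 0.09 between spleen KO and WT. The printed probe, which starts at base 8518 and has 10 spots on each array, gave 132 in marrow KO, 194 in marrow WT, 69.1 in spleen KO and 512 in spleen WT. At that probe the KO array was lower by -0.62 in marrow and by -1.99 (3.97-fold) in spleen, so the probes disagreed by 2.08 in spleen. The SD of its 10 spots was 0.059 to 0.151 in log2 on the 4 arrays, well below that gap.

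For Dclre1c, 4 probes differed in size but not in sign. The probe at base 1810 gave the values above, and that at base 2214 gave 437 in marrow KO, 430 in marrow WT, 315 in spleen KO and 675 in spleen WT, a KO minus WT difference of -0.05 in marrow and -0.20 in spleen. That at base 3830 gave -0.25 and -1.18. The probes at bases 2214 and 3830 share a transcript model, which is not that of the probe at base 1810. A probe at base 990 of another transcript model gave -1.03 in marrow, and was not well above background on the spleen KO array, which makes it at least 2.97-fold lower there (a bound that takes the higher of its own level and the lowest level well above background on that array). All 4 were lower on both KO arrays, the probe at base 2214 by the least. Median scaling, which adds 0.42 to every spleen KO minus WT difference, turned that probe to 0.22 and left the probes at bases 1810 and 3830 at -0.92 and -0.76.

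For Xrcc4, the probe at base 393 gave 505 in marrow KO, 358 in marrow WT, 287 in spleen KO and 425 in spleen WT, a difference of 0.43 in marrow and 0.33 in spleen, against 0.60 and 1.22 at the brighter probe at base 1117. Both probes were higher on both KO arrays, but the spleen value passed 2-fold at the brighter probe alone, and the probe for another transcript model, was not well above background on any array. Trp53bp1 was lower on the KO arrays at all 3 probes. The difference was -0.26 in marrow and -0.15 in spleen at its brightest, and -0.38 and -0.23 at base 8768 of another transcript model. At base 3816 it was -1.23 in marrow and at least 2.05-fold lower in spleen, where the KO signal was not well above background. Under median scaling the spleen differences at the brightest probe and at base 8768 turned to 0.26 and 0.19. The dimmer Nhej1 probe gave 0.06 and -0.10, and the printed Lig4 probe -0.45 and -0.07.

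**Figure D4:**
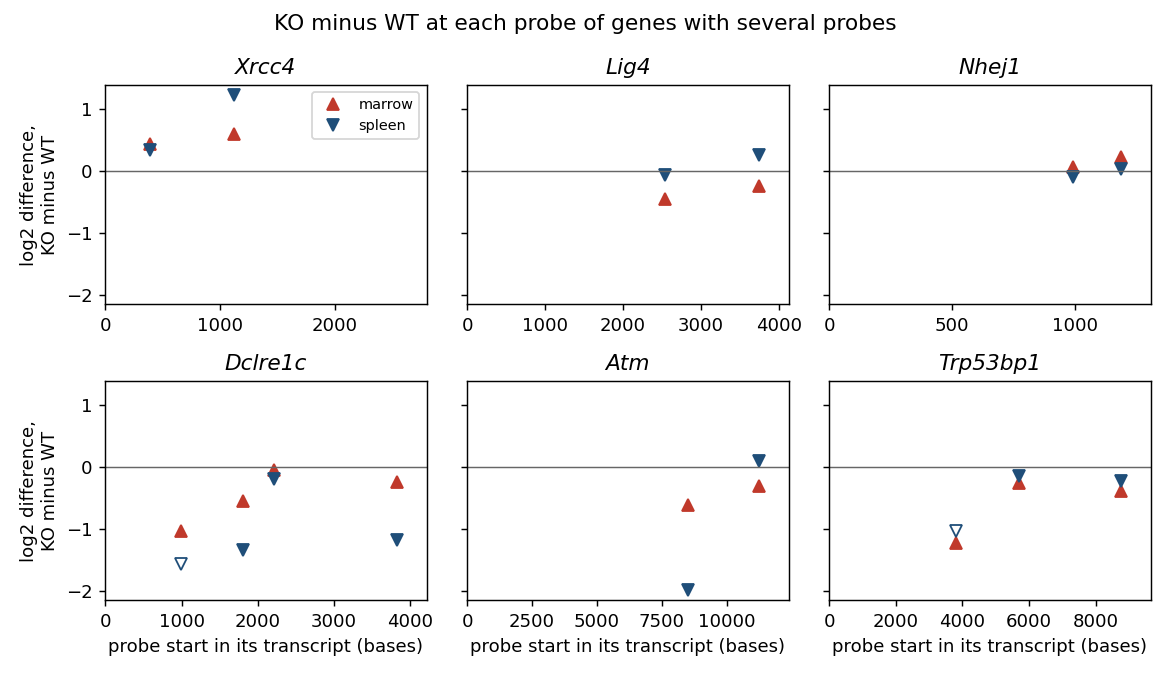
KO minus WT difference in log2 at each probe of the 6 genes with several probes, against the base of its own transcript model at which the probe starts. Red triangles are marrow, blue ones spleen, and open symbols are bounds. In spleen the Atm probes stand 2.08 apart, and all Dclre1c probes lie below 0, though that at base 2214 was at 0.22 under median scaling.

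Probes of 1 transcript disagreed more often between the spleen arrays than between the marrow arrays. Over 3799 pairs of probes of 1 transcript, a median of 1068 bases apart, the 3′ probe gave a KO minus WT difference higher by 0.44 in spleen (median) and by 0.13 in marrow, and 40.1% of pairs were over 2-fold apart in spleen against 5.95% in marrow. Both spleen arrays departed from marrow, with a median 3′ minus 5′ gap of -0.15 for WT spleen minus marrow (22.1% of pairs over 2-fold apart) and 0.15 for KO spleen minus marrow (14.5%). The 8 pairs of member probes were formed within a gene, so those of Dclre1c and Trp53bp1 can join different transcript models. Of these 8 pairs, 2 were over 2-fold apart in spleen and 0 in marrow. The Atm pair is of 1 transcript, while the Dclre1c pair (bases 1810 and 2214) joins different models. The brighter probes of Atm, Xrcc4, Lig4 and Nhej1 are the 3′ ones. The part of this gap in the spleen differences of Xrcc4, Xrcc5, Dclre1c and Atm was not tested.

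Markers of other cells also differed between the genotypes. Of 10 neutrophil markers, 9 in marrow and 7 in spleen exceeded the WT array by 2-fold or more on the KO array (largest Retnlg at 4.95 and Camp at 5.31), and 1, Mmp8, passed the limma fit. Of 10 macrophage markers 6 were 2-fold higher on the spleen KO array (largest Marco at 2.61) and 1 lower, with sums of 144 times the 75th percentile there and 54.8 times in spleen WT, and 18.0 and 21.2 times in marrow KO and WT. Of 8 measured erythroid markers 6 were higher there (largest Hbb-b1 at 3.03), with a sum of 169 times against 20.9 to 31.0 times on the other arrays. Of 8 mature B cell markers 5 were lower on the marrow KO array and 4 on the spleen KO array, where 1 was higher (Fcer2a at -3.05 and -3.97). Of 12 pro-B and pre-B cell markers 4 were 2-fold higher on the marrow KO array (median 0.77), and in spleen 3 of 10 measured ones were higher and 1 lower. Of 8 B lineage markers 2 were lower in marrow, and 3 were higher and 3 lower in spleen, with Cd79a at -1.87 and -2.46. T cell markers summed to 5.29 to 12.3 times, NK cell markers to 2.59 to 6.42 times and plasmacytoid dendritic cell markers to 59.9 to 154 times, and 4 of 9, 1 of 8 and 1 of 7 of them were 2-fold higher in marrow KO than in marrow WT. In spleen 2 of the T cell, 1 of the NK cell and 2 of the plasmacytoid dendritic cell markers were 2-fold higher in KO, and 1, 3 and 1 were lower. The part of these cells in the genotype differences of the 10 genes was not tested.

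The other repair genes gave no genotype call either. In the limma fit 0 of 118 passed and 5 had an unadjusted p under 0.05. In marrow 2 of 118 were at least 2-fold higher in KO and 2 lower (median -0.07), beside 8.4% and 4.87% of all measured genes (median -0.05). In spleen 26 of 117 were higher and 11 lower (median 0.32), beside 20% and 14.2% of all (median 0.28), with the lists as follows. Of 24 break signalling genes 8 were higher in spleen KO and 1 lower. The higher ones included Nbn, of the complex that binds ends, at 1.63 and the kinase gene Atr at 1.38. Atm, their neighbour in function, was there at 0.09 at its brighter probe and at -1.99 at the printed one. Of 24 homologous recombination genes 3 were higher and 1 lower, of 33 excision and mismatch repair genes 7 and 5, of 13 Fanconi genes 2 and 1, and of 9 alternative end joining genes 1 and 1. Of 10 accessory end joining genes 3 were higher and 1 lower, and of 4 V(D)J and class switch genes 2 and 1.

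Some of these genes were 2-fold apart the same way in both tissues. Dntt was higher on the KO arrays by 1.54 in log2 in marrow and by just over 2-fold in spleen. The helicase gene Ercc2 was lower by -1.49 in marrow and at least 3.45-fold in spleen, where the KO signal was not well above background. In spleen the largest differences were those of BC029214, which encodes the end joining factor PAXX (-2.36), and of Shfm1, a partner of Brca2 (2.33). None of these 4 passed the limma genotype test, with adjusted p from 0.168 to 0.409.

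Among the 10 genes, likeness over the 4 arrays was measured as the Euclidean distance between log2 levels centred on each gene's mean. Each gene entered with its brightest probe. The distances of Atm thus leave out its printed probe, which disagreed with the brighter one by 2.08 in spleen KO minus WT. The nearest pair was Prkdc and Atm, at 0.17, and Trp53bp1 stood nearest to Atm, at 0.37. Xrcc6 and H2afx were each other's nearest, at 0.53, and Lig4 stood nearest to Xrcc6, at 0.75. Xrcc4 and Xrcc5 were each other's nearest at 0.80, both with their highest relative level on the spleen KO array. Nhej1 was nearest to Trp53bp1 (0.80), and Dclre1c had the most distant nearest neighbour, Nhej1 at 1.12. The subunits that form the Ku dimer, and the ligase and its cofactor, were thus not nearest to each other in RNA level.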

How the data were processed

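B220 B cell RNA of 4 groups, 1 Cy3 array each, was measured on an Agilent mouse array. Per the file headers, the authors extracted intensity values with Feature Extraction 10.5.1.1 (build mm9); the deposited value table equals the processed signal at all 45018 spots. Here control spots and 72 to 85 outlier spots an array were left out, spots of a probe averaged, and log2 values taken relative to each array's 75th percentile. A gene took its probe brightest over the 4 arrays. A probe counted as well above background where at least 50% of its spots did, and where only 1 array of a pair did, the difference is a bound. Of 27827 gene names, 21706 entered limma 3.58.1 (R 4.3.3) with tissue and genotype terms, adjusted by Benjamini-Hochberg, threshold 0.05. The fit was tried on simulated data, with recovery and false calls given above. Alternatives were 3 normalizations, normexp (offset 50), other probe rules, filters and variance priors. The members and lists were chosen with earlier results of these data known. Named repair genes are those 2-fold apart the same way in both tissues and the 3 with the largest difference in each comparison; markers named are the largest of their list, or defining ones. Brca1, Rad54l, Exo1, Polq, Lig1, Chek1, Nbn and Atr were named after their values were seen. Some genes that these rules name are not reported here.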

Additional observations from a re-analysis of the deposited data

Results flagged for a closer look

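With 1 array in each group, the values below stand out only because a difference had opposite signs in the 2 tissues, or in the 2 genotypes; none of these differences was tested, and 4 arrays allow no test of them. Xrcc5 had the largest such gap: KO minus WT was -0.17 in marrow and 1.14 in spleen, 1.31 apart in log2, and equally its spleen minus marrow difference was -0.13 in WT and 1.18 in KO, again 1.31 apart. Its spleen KO level stood apart from the other 3, on the array with the lowest 75th percentile. For Xrcc6 the KO minus WT difference was higher in spleen than in marrow by 0.35 (-0.20 and 0.15), for Lig4 by 0.50 (-0.24 and 0.26) and for Atm by 0.40 (-0.31 and 0.09). The spleen minus marrow difference of Xrcc4 was higher in KO than in WT by 0.63 (-0.38 and 0.25). That of Dclre1c was lower in KO, with a gap of -0.79 (0.13 in WT and -0.66 in KO). Each of these signs is that of the brightest probe, and the other probes measured for Lig4, Atm, Xrcc4 and Dclre1c gave no opposite signs. KO minus WT at the printed probe was -0.45 in marrow and -0.07 in spleen for Lig4, and -0.62 and -1.99 for Atm. Spleen minus marrow at base 393 of Xrcc4 was 0.23 in WT and 0.14 in KO. For Dclre1c it was 0.63 and 0.48 at base 2214, and 1.04 and 0.11 at base 3830. The repeat-spot error of a difference between arrays was 0.16 to 0.18 in log2, and the values of Xrcc5 at -0.17 and -0.13, Xrcc6 at -0.20 and 0.15, Atm at 0.09 and Dclre1c at 0.13 are near that size or below it. The WT spleen minus marrow difference changed sign under 2 alternatives for Xrcc5 and under 1 for Dclre1c and for Xrcc4.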

How the results depend on the processing

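The limma calls held under all 10 alternatives run: H2afx, Xrcc6 and Lig4 passed for tissue in each, and 0 of 10 members passed for genotype. Among these alternatives, the deposited values equal those of the main setting, so that fit could not differ. Counts by fold moved more. At 1.5-fold, 1 gene was past the threshold in marrow KO against WT (Xrcc4) and 5 in WT spleen against marrow. In spleen KO against WT the count of 3 fell to 1 with cyclic loess and to 1 with the median over probes. The median of the 10 genes in spleen KO against WT was -0.10 with quantile normalization, -0.17 with cyclic loess and 0.54 with median scaling, against 0.12. With median scaling it was -0.25 for WT spleen against marrow and 0.24 for KO spleen against marrow. The causes were not tested. Of the differences of single members, 24 of 80 in spleen KO against WT moved by more than the repeat-spot error, 2 of 90 in marrow, 18 of 90 in WT spleen against marrow and 19 of 80 in KO. These totals include settings that left every member value unchanged: the background filters, the deposited values and, where run, leaving out the spleen KO array. For genes of 1 probe the median over probes changed nothing either. Among settings that could move a value the share is therefore higher. No paired analysis was possible because the labels give no replicate numbers and each group has 1 array. The spleen KO array could not be left out of the test, since no residual degree of freedom would remain. The dim signal of that array limits the values at the probes of Dclre1c and Trp53bp1 that were not well above background.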
